A study of Rattus norvegicus with 6 samples.

Results

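The BCL2 family decides at the outer membrane of mitochondria whether a cell dies by apoptosis. Its transcripts were read in LN4D6 rat mammary tumour cells transfected with CREB3L1 and in untransfected LN4D6 cells. The genes asked for were Bcl2, Bcl2l1, Mcl1, Bax, Bak1, Bcl2l11, Bid, Bik, Bbc3 and Pmaip1, and every probe set annotated with exactly 1 of these symbols was taken. That rule found 14 probe sets for 8 of the 10 genes, among 31042 probe sets tested on the array. The 1 probe set listed for Bax carries several gene symbols, so it was left out, and the Pmaip1 transcript was not analysed here.

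The study holds 3 samples of LN4D6 cells transfected with CREB3L1 and 3 samples of LN4D6 cells with no transfection, all grown in the same way. CREB3L1 is a transcription factor anchored in the endoplasmic reticulum membrane that acts in the nucleus once proteolysis has freed it. Total RNA was labelled with biotin and hybridised to Affymetrix 3' expression arrays, 1 array per sample. The labels name no empty-vector control and do not say whether the transfected cells are a pool or a clone, so the act of transfection and the factor itself cannot be told apart. The labels do not state that a group's arrays came from separate cultures, and p-values then measure the spread between these samples, which may be technical. In such bulk samples, fewer cells of a type and less RNA per cell cannot be told apart either.

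Family members share short regions of homology called BH domains and act through one another. The survival proteins BCL2, BCL-xL (from Bcl2l1) and MCL1 bind and restrain the effectors BAX and BAK, which otherwise open pores in the outer mitochondrial membrane and release cytochrome c to the caspases. The BH3-only proteins, here BIM (from Bcl2l11), BID, BIK, PUMA (from Bbc3) and NOXA (from Pmaip1), carry stress signals by occupying the survival proteins, and some also engage the effectors directly. In mammary epithelium this balance is known for controlling the loss of cells when milk production ends. Stress of the endoplasmic reticulum, the compartment in which CREB3L1 resides, is known to act on several BH3-only genes.

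Of the 8 genes read, Bcl2l1 alone passed the test. It was lower in CREB3L1 cells, as were 1.52% of all genes at the same threshold. Its call was lost in several other fits and without some single arrays. The BIM gene Bcl2l11 was read by a dim probe set that lay below background in CREB3L1 cells, and its adjusted p was just over the threshold. Mcl1 and Bbc3 gave small differences that did not pass. For Bid, 1 CREB3L1 array stood apart from the other 5, and Bcl2, Bik and Bak1 lay below the background level in both groups. Levels are log2 expression values as deposited, and values under 5 were treated as background. Differences are CREB3L1 minus untransfected, each followed by its standard error. They were tested with limma at an adjusted p of 0.05, by the method of Benjamini and Hochberg over all 31042 probe sets. A gene was counted by its brightest probe set over the 6 arrays, and its other probe sets are given beside it. Levels of different probe sets are not comparable, since each binds its target with its own strength.

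Promoters were searched because CREB3L1 acts on DNA. Those of 3 members are shown, the survival genes Bcl2l1 and Mcl1 and the BH3-only gene Bcl2l11. Of these only Bcl2l1 passed the test, and the place of Mcl1 here reflects no result. CREB3L1 is known to bind the cyclic AMP response element TGACGTCA and related elements of the unfolded protein response. The 250 bases before each annotated start (RefSeq, GRCr8) were searched on both strands. The strings sought were TGACGTCA, the variant TGACGTGG, their shared core TGACG, and CCACG, the closing part of the endoplasmic reticulum stress element. Every match to TGACGTCA or TGACGTGG also holds the core TGACG. Promoters of 7 member genes were in the table, and capitals mark the matches. Each of the 3 sequences shown holds a match, and no start without a match is shown.
Bcl2l1: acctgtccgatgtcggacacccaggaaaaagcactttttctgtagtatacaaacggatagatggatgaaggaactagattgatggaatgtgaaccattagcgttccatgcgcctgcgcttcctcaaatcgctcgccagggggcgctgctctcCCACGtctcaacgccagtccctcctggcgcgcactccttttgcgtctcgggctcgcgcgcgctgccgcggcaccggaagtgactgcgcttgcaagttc
Bcl2l11: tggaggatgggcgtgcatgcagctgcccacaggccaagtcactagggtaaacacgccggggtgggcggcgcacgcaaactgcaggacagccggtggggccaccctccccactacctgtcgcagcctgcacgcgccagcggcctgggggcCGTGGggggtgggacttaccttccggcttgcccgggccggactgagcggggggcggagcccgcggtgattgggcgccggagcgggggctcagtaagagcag
Mcl1: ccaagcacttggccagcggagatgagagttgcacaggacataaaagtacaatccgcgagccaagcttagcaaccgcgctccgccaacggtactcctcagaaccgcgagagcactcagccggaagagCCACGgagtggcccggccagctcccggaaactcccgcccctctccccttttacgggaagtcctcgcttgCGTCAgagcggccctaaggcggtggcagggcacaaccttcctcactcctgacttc

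These windows are chr3:161764776-161765025 on the minus strand for Bcl2l1, chr3:135819792-135820041 on the plus strand for Bcl2l11 and chr2:185907918-185908167 on the plus strand for Mcl1. Bcl2l1 has 4 annotated starts in the table, and the one shown is the 1 with a match. Neither TGACGTCA nor TGACGTGG occurred before any start of the 7 member genes. Across all 33469 promoters of the same length these were found in 1.59% and 0.52%. The 7 member genes have 10 annotated starts in all. The core TGACG was found before 2 of these 10 (Mcl1 and Pmaip1), and in 18.2% of all promoters. CCACG was found before 4 of the 10 (Bcl2l1, Bcl2l11, Mcl1 and Pmaip1, 1 start each), and in 27.2% of all promoters. A match of letters is a description of the sequence and says nothing of binding.

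The arrays differed in quality. On CREB3L1 replicate 3 the gap between the 3' and 5' control readings of Gapdh was 4.77, while on the other 5 arrays the gap ran between -0.16 and -0.10. The gap for the spiked-in dap RNA was 7.31 on that array and 2.33 to 4.48 on the others. The differences of members above background are therefore also given without CREB3L1 replicate 3. The probe set of Creb3l1 itself lay below background at 3.39 ± 0.03 in CREB3L1 and 3.36 ± 0.02 in untransfected cells (SD, n = 3 each), and since the species of the construct is not given in the sources used here it does not check the labels. Of 10 epithelial markers, 3 read above background, the keratins Krt5, Krt14 and Krt8, while the other 7, among them the defining Epcam, Cdh1 and Krt18, read below it. Of the fibroblast markers 1 of 6, Col3a1, was above background, and of the endothelial, leukocyte and adipocyte markers 0 were, with group means of at most 4.44 in CREB3L1 and 4.39 in untransfected cells. By limma, 0 marker genes passed the test, and at an unadjusted p under 0.05 only the endothelial gene Tek did, lower and below background in both groups.

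Among the survival genes, Bcl2l1 fell. Its bright probe set 1370812_at had log2 values of 8.02, 7.83 and 7.89 in CREB3L1 cells, against 8.45, 8.40 and 8.45 in untransfected cells. All 3 CREB3L1 arrays lay below all 3 untransfected arrays. The log2 difference was -0.52 ± 0.06, which is 1.44-fold lower (adjusted p = 0.0209, limma, n = 3 per group). The gene encodes the survival protein BCL-xL and, by splicing, other forms, and the probe set was not matched to a single form.

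The fall in Bcl2l1 was nearly the same without CREB3L1 replicate 3, at -0.51 ± 0.06 (adjusted p = 0.0211). The call depended on how the spread was estimated and on each of several arrays. It was lost with a mean-variance trend (0.140), in an ordinary test without moderation (0.111) and without CREB3L1 replicate 2 (0.0762) or untransfected replicate 1, 2 or 3 (0.108, 0.100 and 0.109). With the mean of all Bcl2l1 probe sets in place of the brightest, the gene was not called either. Without any 1 array the difference of 1370812_at ran between -0.57 and -0.48. Without CREB3L1 replicate 2 or untransfected replicate 1, 2 or 3, calls over all probe sets also fell, from 431 to 150, 157, 144 and 179. The other Bcl2l1 probe sets, 1369180_at and 1370485_a_at, lay far below background in both groups, with differences of 0.02 ± 0.03 and -0.04 ± 0.09.

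By size the fall in Bcl2l1 was modest. Of the 7714 genes above background in a group, 7.51% had a lower difference. At an adjusted p below 0.05, 1.52% of all 14217 genes were lower and 0.577% were higher in CREB3L1 cells, and 2.61% of the genes above background were lower. With 1 of 8 genes lower and 0 higher, the family's share is set by a single gene. At an unadjusted p under 0.05 the same fit gave 2 genes lower, Bcl2l1 and Bcl2l11, and 0 higher. Of all genes, 7.99% were lower and 6.05% higher at that level, and the counts below for related genes are to be read against these shares. Counted by probe set, 1 of the 14 was called lower, against 0.963% of all probe sets, and 0 were called higher, against 0.425%.

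**Figure D1:**
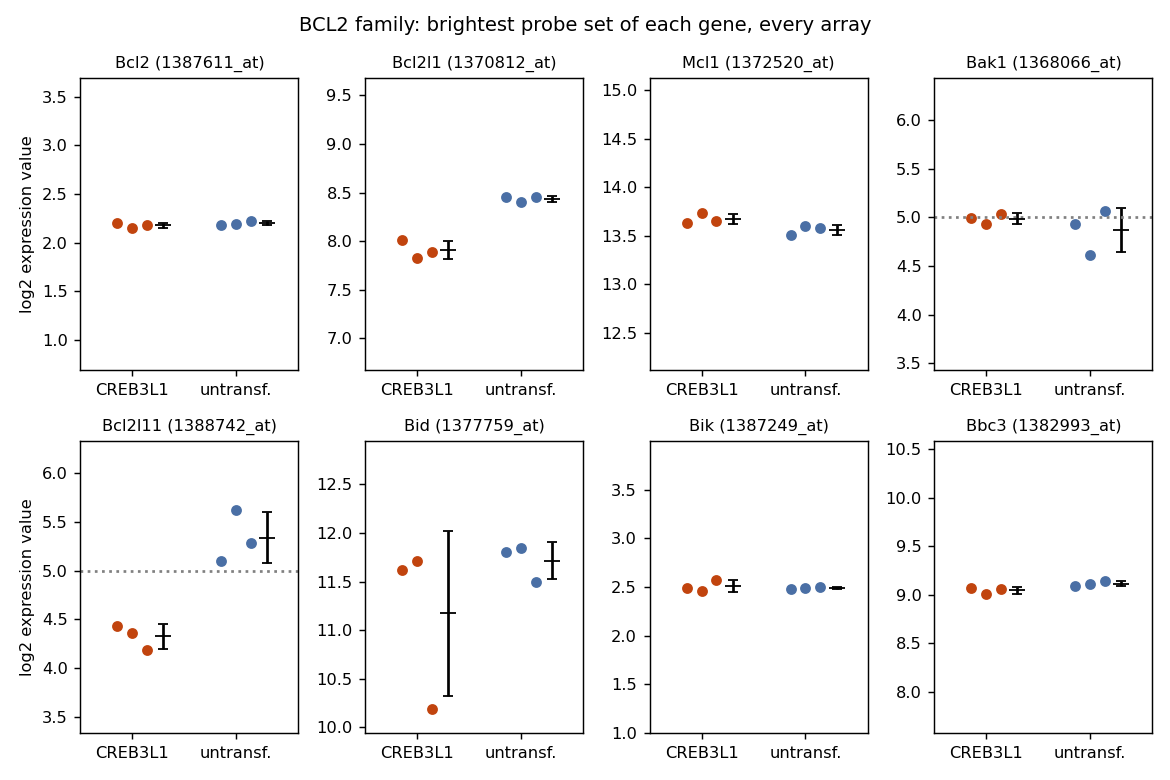
Log2 expression values of the brightest probe set of each of the 8 genes on every array, CREB3L1 left and untransfected right, with the group mean and SD as a bar beside the points. Every panel spans 3 log2 units, and the dotted line marks the background level of 5. Bcl2l1 and Bcl2l11 have groups clearly apart, but Bcl2l11 did not pass (adjusted p = 0.0530, limma) and its CREB3L1 points lie below the dotted line. The groups of Mcl1 and Bbc3 do not overlap either, by small margins. Over all probe sets, 7.75% had every CREB3L1 array below every untransfected array and 6.52% above. The low point in the Bid panel (10.19) is CREB3L1 replicate 3.

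Mcl1, which encodes a short-lived survival protein, had values of 13.63, 13.74 and 13.65 in CREB3L1 cells, against 13.51, 13.60 and 13.58 in untransfected cells on probe set 1372520_at. The CREB3L1 arrays were all slightly above the untransfected ones. The log2 difference of 0.11 ± 0.05 did not pass the test (adjusted p = 0.565), and its 95% interval ran from -0.0062 to 0.22. Without CREB3L1 replicate 3 it was 0.12 ± 0.05 (adjusted p = 0.431).

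The other Mcl1 probe set, 1370141_at, had values of 10.78, 10.65 and 9.54 in CREB3L1 cells, against 10.37, 10.55 and 10.18 in untransfected cells. The groups overlapped, and CREB3L1 replicate 3 was the lowest of all. With 6 arrays the difference was -0.05 ± 0.35, and without that array it was 0.34 ± 0.12 (adjusted p = 0.262). The sign also turned without untransfected replicate 2 (0.047) and with array weights (0.25).

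Bcl2, the founding survival gene, gave values of 2.20, 2.15 and 2.18 in CREB3L1 cells, against 2.18, 2.20 and 2.22 in untransfected cells. Both groups lay far below the background level, so the transcript was not detectable with this probe set and no fold can be given.

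Of the effectors only Bak1, which encodes a pore former resident in the outer mitochondrial membrane, had a probe set annotated with its symbol alone. Its values were 5.00, 4.93 and 5.04 in CREB3L1 cells, against 4.93, 4.61 and 5.06 in untransfected cells. The groups overlapped, and both means lay just below the background level, so no fold can be given. The log2 difference was 0.12 ± 0.12 (95% interval -0.19 to 0.42, adjusted p = 0.9998).

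Among the BH3-only genes, Bcl2l11 encodes BIM, which binds all the survival proteins and is a main sensor of growth factor loss. Probe set 1388742_at had values of 4.43, 4.36 and 4.18 in CREB3L1 cells, against 5.10, 5.62 and 5.29 in untransfected cells. The groups did not overlap, and the untransfected arrays alone were above background.

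The log2 difference of Bcl2l11 was -1.01 ± 0.15, with an adjusted p of 0.0530, just short of the threshold. Set against the background level, the level in CREB3L1 cells was at least 1.26-fold lower. Without CREB3L1 replicate 3 the difference was -0.94 ± 0.15 and passed the test (adjusted p = 0.0436). Without that array 2 of the 8 genes were lower and 0 higher, while 3.70% of all genes were lower and 2.02% higher. The difference passed, too, with median centring (0.0431), with a mean-variance trend (0.0383) and with array weights (0.0145). It did not pass after another quantile normalisation (0.0689), in a robust fit (0.0602), in the ordinary test (0.221) or without any other single array (0.0893 to 0.190).

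The other Bcl2l11 probe sets, 1370787_at and 1387338_s_at, read under background in either group, with differences of 0.01 ± 0.05 and -0.0062 ± 0.06. The difference in Bcl2l11 therefore rests on 1 dim probe set.

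Bbc3, which encodes the p53-responsive BH3-only protein PUMA, had values of 9.07, 9.01 and 9.06 in CREB3L1 cells, against 9.09, 9.11 and 9.14 in untransfected cells. The CREB3L1 arrays were all below the untransfected ones by a small margin. The log2 difference of -0.07 ± 0.03 did not pass (adjusted p = 0.679), and its 95% interval ran from -0.15 to 0.01. Without CREB3L1 replicate 3 it was -0.08 ± 0.04.

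Bid, whose protein links death receptors to mitochondria after caspase cleavage, was read by a pair of probe sets above background. Probe set 1377759_at had values of 11.62, 11.71 and 10.19 in CREB3L1 cells, against 11.80, 11.84 and 11.50 in untransfected cells. Its difference was -0.54 ± 0.43 (adjusted p = 0.9998), and -0.05 ± 0.12 without CREB3L1 replicate 3, with a 95% interval from -0.34 to 0.25. The low value on that array sets the CREB3L1 mean.

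Probe set 1369683_at of Bid varied more than any other reading of the family. It had values of 7.42, 8.35 and 2.73 in CREB3L1 cells, against 7.26, 9.26 and 6.72 in untransfected cells. The 5' probe set of the spiked-in dap RNA had 6.19, 7.56 and 2.08 on the CREB3L1 arrays, against 6.12, 7.51 and 4.67 on the untransfected arrays. From the lowest array up, both readings ran CREB3L1 replicate 3, untransfected replicate 3, untransfected replicate 1 and CREB3L1 replicate 1, with the 2 highest arrays in opposite order. The part of array quality in this Bid reading was not tested. Its difference, -1.58 ± 1.64 with 6 arrays and 0.14 ± 0.81 without CREB3L1 replicate 3, had an error larger than itself both ways.

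Bik, which encodes a BH3-only protein located at the endoplasmic reticulum, had values of 2.49, 2.45 and 2.57 in CREB3L1 cells, against 2.48, 2.49 and 2.50 in untransfected cells. It lay below background on every array, and no fold can be given.

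**Figure D2:**
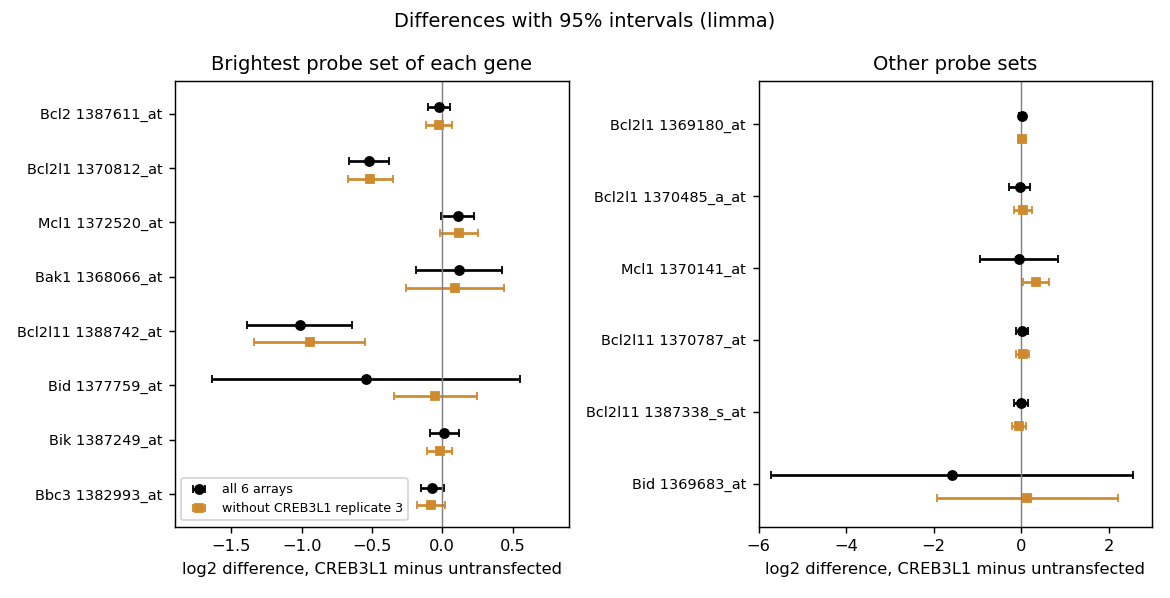
Log2 differences, CREB3L1 minus untransfected, with 95% intervals from limma, for the brightest probe set of each gene (left) and the 6 other probe sets (right, on a wider axis), with all 6 arrays (circles) and without CREB3L1 replicate 3 (squares). Bcl2l1 (-0.52) and Bcl2l11 (-1.01) keep intervals below 0 both ways, whereas the interval of Bid narrows once that array is left out.

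In all, 3 of the 14 probe sets (Bcl2l1 1370812_at, Bcl2l11 1388742_at and Bbc3) had every CREB3L1 array below every untransfected array, and 2 (Mcl1 1372520_at and the dim Bcl2l1 1369180_at) had every CREB3L1 array above. Over all probe sets these patterns made up 7.75% and 6.52%. The median log2 difference over the 8 genes was -0.05, and over all 14217 genes it was -0.01. Without CREB3L1 replicate 3 the medians were -0.04 and -0.00026.

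**Figure D3:**
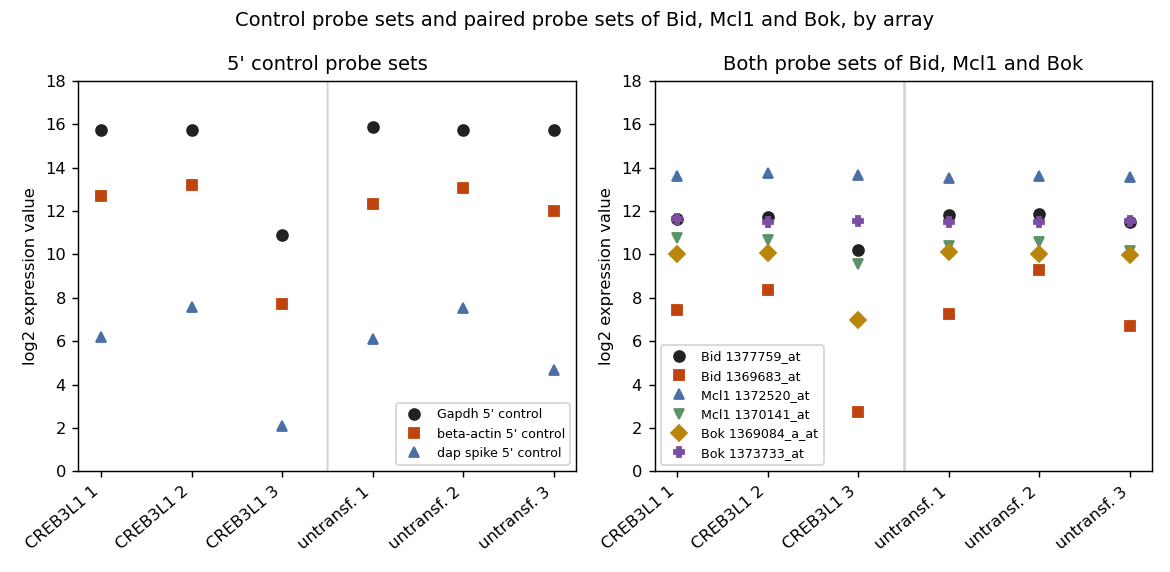
Log2 expression values on each array (CREB3L1 left, untransfected right) of the 5' controls for dap, Gapdh and beta-actin (left panel) and of both probe sets of Bid, Mcl1 and Bok (right panel). All 3 controls, Bid 1369683_at (2.73), Bid 1377759_at (10.19), Mcl1 1370141_at (9.54) and Bok 1369084_a_at (6.97) are lowest on CREB3L1 replicate 3. Mcl1 1372520_at and Bok 1373733_at are not.

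In the wider family, of 12 other BCL2 family genes measured, 1 fell, 0 rose and 11 did not pass, with a median difference of -0.0034 (limma; 3 lower and 1 higher at an unadjusted p under 0.05). The gene that fell was Bnip3, an atypical member that marks mitochondria for autophagy and is induced by hypoxia. Bnip3 had values of 11.90, 11.65 and 11.62 in CREB3L1 cells, against 12.39, 12.47 and 12.33 in untransfected cells. The groups were well apart, and the difference was -0.67 ± 0.09 (adjusted p = 0.0407), or -0.62 ± 0.09 without CREB3L1 replicate 3 (adjusted p = 0.0308). The call was lost in the ordinary test (0.187) and without CREB3L1 replicate 2 (0.166) or untransfected replicate 1, 2 or 3 (0.173, 0.179 and 0.134).

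Further family genes were named after their values were seen. The effector-like gene Bok gave 0.01 ± 0.05 on probe set 1373733_at, while its probe set 1369084_a_at had 10.03, 10.07 and 6.97 in CREB3L1 cells, against 10.13, 10.00 and 9.97 in untransfected cells. Bad, a BH3-only gene whose protein is held in check by growth factor signalling, gave 0.22 ± 0.07 (adjusted p = 0.399). The survival gene Bcl2l2, which encodes BCL-w, gave 0.10 ± 0.07 (adjusted p = 0.968).

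Downstream of the mitochondria, 18 genes for caspases, the apoptosome and their inhibitors were measured, of which 0 rose and 0 fell by limma (3 higher and 1 lower at an unadjusted p under 0.05). The smallest p belonged to Xiap, which encodes the main direct inhibitor of caspases, at 0.20 ± 0.04 (adjusted p = 0.150), and to Aifm1, a mitochondrial flavoprotein gene, at 0.32 ± 0.07 (adjusted p = 0.165). In both genes all 3 CREB3L1 arrays were above all untransfected arrays. Without CREB3L1 replicate 3, Aifm1 (0.40, adjusted p = 0.00865) and Diablo (0.27, adjusted p = 0.0394), whose protein frees caspases from their inhibitors, were higher and passed the test. In that fit 2.02% of all genes were higher and 3.70% lower.

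In the death receptor pathway, which reaches the family through Bid, 1 of 12 measured genes rose and 0 fell (3 higher and 0 lower at an unadjusted p under 0.05), with a median difference of 0.15. Cflar, which encodes the caspase-8 inhibitor FLIP, had values of 8.24, 8.23 and 8.33 in CREB3L1 cells, against 7.39, 7.34 and 7.04 in untransfected cells. It rose by 1.01 ± 0.10, which is 2.02-fold (adjusted p = 0.0170), and by 0.98 ± 0.11 without CREB3L1 replicate 3 (adjusted p = 0.0163). The call was lost in the ordinary test (0.114), without CREB3L1 replicate 1 (0.0848) or 2 (0.0842), and without untransfected replicate 1 (0.0571) or 2 (0.0807). The other Cflar probe set read under background throughout, with a difference of 0.06. Without CREB3L1 replicate 3, 3 of the 12 genes were higher and 0 lower, where 2.02% of all genes were higher and 3.70% lower.

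The death receptor gene Fas, on its brightest probe set, had 9.44, 9.39 and 8.49 in CREB3L1 cells, against 8.54, 8.58 and 8.57 in untransfected cells. It was higher on CREB3L1 replicates 1 and 2, and level with untransfected cells on replicate 3. The difference of 0.55 ± 0.27 did not pass (adjusted p = 0.695), and without CREB3L1 replicate 3 it was 0.86 ± 0.04 (adjusted p = 0.0013). Fas, Diablo and Ddit3 were named after their values were seen.

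Of 14 genes in the list of p53 and its targets, the pathway that drives Bbc3, 0 rose and 0 fell by limma (4 higher and 0 lower at an unadjusted p under 0.05), with a median of 0.09. Aen, an apoptosis-enhancing nuclease gene, gave 0.74 ± 0.15 (adjusted p = 0.141), and 0.57 ± 0.06 without CREB3L1 replicate 3 (adjusted p = 0.0134). Ccng1, a cyclin G gene, gave 0.15 ± 0.04 (adjusted p = 0.219). Without CREB3L1 replicate 3, 3 genes of the list were higher and 1 was lower, where 2.02% of all genes were higher and 3.70% lower.

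Genes of endoplasmic reticulum stress and of the factor ATF4, known as regulators of BH3-only genes, had the lowest median of the lists, -0.34 over 17 measured genes. Of these 1 fell and 0 rose (7 lower and 1 higher at an unadjusted p under 0.05), and without CREB3L1 replicate 3 there were 5 lower and 1 higher with a median of -0.12, where 3.70% of all genes were lower and 2.02% higher. The gene that fell was Chac1, whose product degrades glutathione, with 9.64, 9.67 and 9.59 in CREB3L1 cells, against 11.00, 10.85 and 10.64 in untransfected cells. Its difference was -1.19 ± 0.10 (adjusted p = 0.00884), or -1.17 ± 0.11 without CREB3L1 replicate 3 (adjusted p = 0.00979). The call was lost in the ordinary test (0.0773) and without CREB3L1 replicate 1 (0.0536), CREB3L1 replicate 2 (0.0565) or untransfected replicate 2 (0.0642).

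Ddit3, which encodes CHOP, a factor known to induce Bcl2l11 and Bbc3 under stress, had 10.79, 10.67 and 10.28 in CREB3L1 cells, against 11.45, 11.40 and 11.13 in untransfected cells. The groups did not overlap, but the difference of -0.75 ± 0.16 did not pass (adjusted p = 0.150), nor did that of -0.60 ± 0.11 without CREB3L1 replicate 3 (adjusted p = 0.0578).

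Of the 14 FOXO, MAPK and AKT side regulators 0 rose and 0 fell by limma (0 higher and 1 lower at an unadjusted p under 0.05). Foxo3, which encodes a factor known to drive Bcl2l11, gave -0.22 ± 0.09 (adjusted p = 0.582) and Mapk14, the p38 kinase gene, -0.11 ± 0.04 (adjusted p = 0.456). Of the 11 genes for MCL1 turnover and BH3 partners 0 passed in either direction, also at an unadjusted p under 0.05. The brightest probe set of Usp9x, whose product removes ubiquitin from MCL1, gave -0.16 ± 0.08 (adjusted p = 0.677), and its probe set with the smallest p gave -0.76 ± 0.11 (adjusted p = 0.0589). Ywhaz, which encodes a 14-3-3 protein, gave 0.06 ± 0.05 (adjusted p = 0.996).

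**Figure D4:**
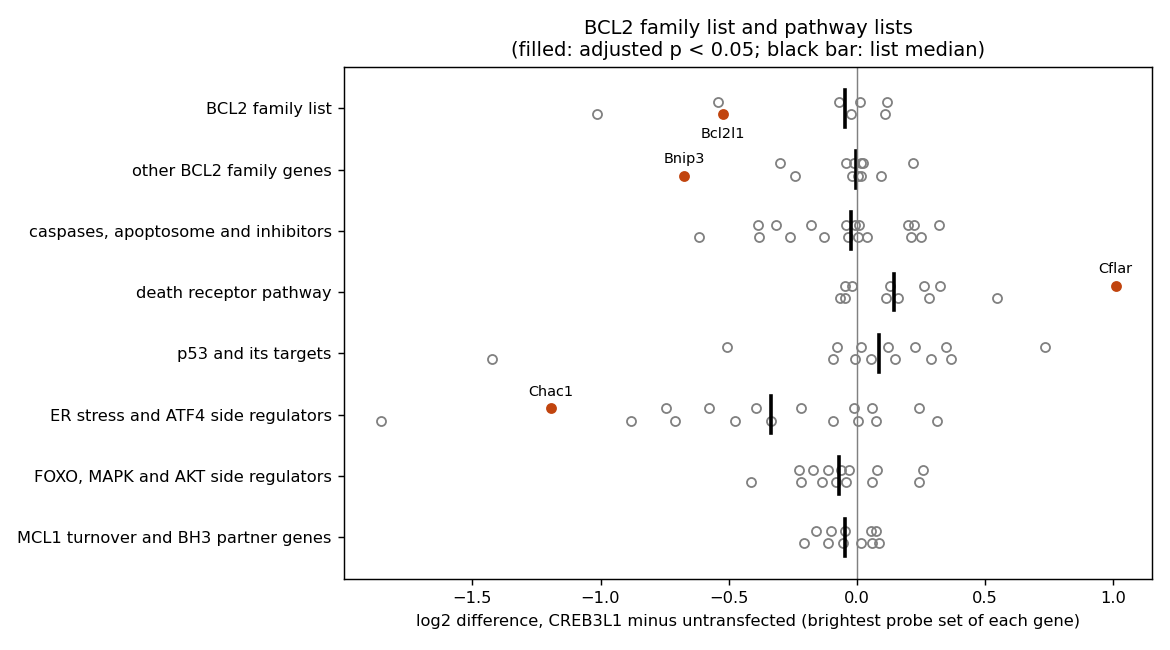
Log2 differences, CREB3L1 minus untransfected, of the brightest probe set of each gene in the BCL2 family list and 7 lists of related genes. Filled points passed the test with all 6 arrays, and black bars are list medians. Bcl2l1, Bnip3 and Chac1 lie below 0, Cflar lies at 1.01, and the list of endoplasmic reticulum stress genes has its median at -0.34.

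Across the 98 distinct genes of these 7 lists, 3 (3.06%) were called with 6 arrays, against 2.10% of all genes. In the fit without CREB3L1 replicate 3, 17 (17.3%) were called, against 5.72% of all genes. Among the 8 family genes the count was 1 with all arrays and 2 without that array. Among all genes, 7714 of 14217 read above background. That share was larger in every list but that of other BCL2 family genes (6 of 12). Of the genes above background, 2.61% were lower with 6 arrays. The shares of the lists and of all genes therefore have unlike bases, and no excess is read from them. The part of array quality in these counts of calls was not tested.

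Genes with the pattern most like that of Bcl2l1 1370812_at were sought among 7709 other genes above background. The measure was the root mean square distance over the 6 arrays after each gene was centred on its untransfected mean. Nearest were Depdc7 (0.048), the lysosomal transcription factor gene Tfe3 (0.049) and the tetraspanin gene Cd9 (0.056). Their differences were -0.55 ± 0.05, -0.53 ± 0.08 and -0.48 ± 0.06, values that follow from the choice by likeness.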

How the data were processed

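Transcripts were measured on 6 arrays, 3 of CREB3L1-transfected and 3 of untransfected LN4D6 cells, grouped by the label that names what was transfected. The deposited values are log2 expression values. Per the submitters' processing notes, the authors summarised probes by RMA using Partek 6.6, with probe-level settings not given in the sources used here. That the scale is log2 was inferred from the range of 0.27 to 16.86. RMA makes the arrays' distributions alike, which hides any global change in RNA. No further normalisation was applied, and the number of arrays limits the precision.

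Of 31099 probe sets, 57 controls were set aside. Symbols came from GEO's platform annotation, checked against RefSeq GRCr8 (20826 probe sets with 1 symbol, 436 with several, 9780 not listed). The table holds no detection calls, so 5 was taken as the background level, as in earlier work on these data. The comparison used limma 3.58.1 (R 4.3.3, eBayes without trend, two-sided) on all 31042 probe sets. The code was tested on simulated data. An exact permutation test of 3 against 3 cannot go below 0.1 and was not used.

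The members, the gene lists and the tests were chosen with earlier results of these data known. Named genes are all members, up to 4 genes called in each other list (or the 2 with the smallest p), and the 3 genes nearest in pattern to the member with the smallest p. No 2 arrays shared more than 10 identical values.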

Additional observations from a re-analysis of the deposited data

How the results depend on the processing

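The alternatives were quantile normalisation, median centring, leaving out dim probe sets at a level of 4, 5 or 6, eBayes with a trend or robust, an ordinary test, array weights, the mean of a gene's probe sets, and leaving out each array in turn. Of 189 recomputed differences of member probe sets, 161 kept their direction and their side of the threshold. Most of these come from probe sets that were called in no setting, so the total says little of stability. Bcl2l1 1370812_at was called in 9 of 15 settings, and Bcl2l11 1388742_at in 6 of 14. Dim probe sets were left out by the higher of the 2 group means. At level 5, Bcl2l11 1388742_at was kept through its untransfected mean alone (5.34, against 4.32 in CREB3L1 cells). Its call in that setting is therefore no separate support. The difference of Bcl2l1 1370812_at was negative in the 15 settings that kept the probe set apart (adjusted p 0.00572 to 0.140), and the call was lost in the settings named above. For Bcl2l11 the adjusted p ran between 0.0145 and 0.221, for Bnip3 between 0.00943 and 0.187, for Cflar between 0.00629 and 0.114 and for Chac1 between 0.00294 and 0.0773. No paired analysis was made, because the labels state no pairing between the groups. The replicate numbers used here follow the order of the arrays within each group. In both groups the dap 5' control was highest on replicate 2 and lowest on replicate 3. A block by replicate number was not tested.

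The number of members called was 1 with all arrays. It was 2 with median centring, with dim probe sets left out at level 5 or level 4 and with array weights. The added call at level 5 was Bcl2l11, which that filter kept through untransfected cells alone. The number was 0 in the ordinary test and with a gene's probe sets averaged, and 0 to 2 without any 1 array. The related lists held 3 calls, 0 in the ordinary test, 14 with array weights, 5 with averaged probe sets and 0 to 17 without any 1 array. Over all 31042 probe sets, 431 were called (132 higher, 299 lower), and 370 with median centring. Of the probe sets kept, 413 were called at level 5 and 424 at level 4. There were 74 in the ordinary test (9 higher, 65 lower), 1552 with array weights (600 higher, 952 lower) and 79 higher with a trend. Without any 1 array there were 144 to 1235 (28 to 479 higher, 116 to 756 lower). No such total was made with averaged probe sets. Of the fits without 1 array, that without CREB3L1 replicate 3 gave the highest counts. The ordinary test has few degrees of freedom, and for the other settings the cause was not tested.

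Signs turned 16 times, in 7 probe sets that did not pass the test. With array weights the difference was 0.041 for Bcl2l1 1370485_a_at, 0.25 for Mcl1 1370141_at, -0.015 for Bcl2l11 1370787_at and -0.027 for Bik, and with median centring it was 0.0045 for Bcl2l11 1387338_s_at. Without any 1 array the ranges were -0.095 to 0.035 for Bcl2l1 1370485_a_at, -0.27 to 0.34 for Mcl1 1370141_at, -0.011 to 0.21 for Bak1, -0.031 to 0.042 for Bcl2l11 1370787_at, -0.048 to 0.037 for Bcl2l11 1387338_s_at, -2.67 to 0.14 for Bid 1369683_at and -0.019 to 0.040 for Bik.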
